A study of Bos taurus with 8 samples.

Results

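The DNA replication and S-phase genes are a set of 41 genes, taken by exact symbol from the 28709 genes of the deposited table. They encode the factors that license and fire replication origins, unwind and copy DNA, join the new strands, pack them into chromatin and start S phase. Each symbol matched 1 row, and all 41 passed the filter on low counts, so every member was tested. The libraries are poly(A) RNA from BUTE cells, an immortalized uterine epithelial line made from a Holstein cow and labelled wild type. All cells were grown to 80% confluence, starved of serum and steroids for 24 h in the presence of insulin-like growth factor 1 (IGF1), and then kept for another 24 h in serum-free and steroid-free medium with IGF1 at 50 ng/ml. During these last 24 h, 4 libraries had the vehicle DMSO and 4 had 10 µM progesterone. BUTE is a single immortalized line from 1 animal, and nothing in the labels states that each library had a culture of its own, so p-values measure only the spread between these libraries.

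A replication origin is licensed in G1, when the origin recognition complex, CDC6 and CDT1 load the ring-shaped MCM helicase onto DNA. In S phase CDC45 and the GINS complex turn the loaded ring into an active helicase, primase and polymerase alpha lay down primers, and polymerases delta and epsilon copy the strands, held to DNA by the PCNA clamp that replication factor C loads. Many of these genes are transcribed by E2F factors once cyclin-dependent kinases inactivate the retinoblastoma protein. In the uterus, progesterone is known for restraining the oestrogen-driven proliferation of the epithelium.

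Library totals lay between 23810861 and 32509786 estimated counts. Columns of the deposited table are named DMSO R1, R3, R7 and R9 and progesterone R1, R2, R3 and R6, and these numbers differ from the samples' own replicate numbers. DMSO R7 and R9 stood apart: across genes they correlated at 0.992 with each other and at 0.949 to 0.962 with the other 6 libraries, which correlated at 0.983 to 0.992 among themselves. The 4 progesterone libraries were therefore set against all 4 DMSO libraries and, separately, against DMSO R1 and R3 alone, a choice made with this structure known. Of 12 epithelial markers 5 had at least 1 CPM (counts scaled to library size and TMM factors) in every library, the keratin KRT8 and the adhesion protein CDH1 among them. CLDN3, CLDN4, CLDN7 and GRHL2 were under 1 CPM in every library, and the epithelial adhesion molecule EPCAM lay between 0.275 and 2.53 CPM. The keratin KRT18 was also low, between 0.948 and 6.92 CPM. Summed, the epithelial markers stood at 2829 to 3081 CPM with DMSO and 1745 to 2667 with progesterone. KRT8 made up most of this sum, at 2286 to 2789 CPM with DMSO and 1348 to 2107 with progesterone. KRT19 was at 706, 565, 255 and 258 CPM in DMSO R1, R3, R7 and R9 and at 361 to 585 with progesterone. KRT7 was at 35.3, 22.0, 5.70 and 6.09 CPM in the same DMSO libraries and at 12.2 to 25.7 with progesterone. CDH1 did not follow the sum, at 10.5 to 17.3 CPM with DMSO and 13.1 to 22.7 with progesterone. All 10 stromal fibroblast markers had at least 1 CPM in every library. Summed, they stood at 13302 and 13588 CPM in DMSO R1 and R3, at 19060 and 20589 in DMSO R9 and R7, and at 12116 to 13307 with progesterone. The 6 smooth muscle markers, 5 of them at 1 CPM or more throughout, summed to 2097 to 2950 CPM with DMSO and 1576 to 2114 with progesterone. Endothelial markers summed to at most 6.70 CPM and immune markers to at most 14.7 CPM in any library, and PTPRC, the pan-leukocyte marker, had no count in any.

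The replication genes were measured well in every library. A member had between 277 and 14256 counts in a library. With all 8 libraries, 0 of 41 members passed the threshold of 0.05 on the adjusted p (quasi-likelihood F test of edgeR, adjusted by Benjamini-Hochberg over 13557 genes), where 2.65% of all genes tested passed, 1.69% higher and 0.959% lower with progesterone. The lowest adjusted p of a member was 0.0627. At an unadjusted p under 0.05 edgeR gave 6 members, 2 above and 4 below DMSO, against 26.8% of all genes, 12.3% above and 14.5% below. DESeq2 called 3 members (GINS4 and CCNE1 below DMSO, RFC4 above) and 13.5% of all genes, and limma voom called 0 members and 2.04% of all genes. Log2 fold changes (progesterone minus DMSO) ran from -0.51 to 0.46 with a median of 0.03, beside a median of -0.01 over all genes tested. The fold change was below 0 for 19 members and above 0 for 22, and 51% of all genes were below 0.

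Against DMSO R1 and R3 alone, 0 of 41 members passed again, where 1.18% of 13764 genes did, 0.995% higher and 0.182% lower. The lowest adjusted p of a member was 0.127 (edgeR, as above). An unadjusted p under 0.05 was found for 6 members, 1 above and 5 below DMSO, against 15.9% of all genes, 9.77% above and 6.1% below. DESeq2 called 1 member, CCNE1, and 4.38% of all genes, and voom called 0 members and 0.988%. Fold changes ran from -0.51 to 0.28 on the log2 scale, with a median of -0.08 beside 0.01 over all genes. Here 33 of the 41 members were below 0 and 8 above, while 48% of all genes were below 0. The sign differed between the comparisons for 16 members, 15 of which were above 0 with all libraries and below 0 without DMSO R7 and R9. Both comparisons use the same progesterone libraries and share DMSO R1 and R3, so they are not independent.

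The intervals give the size of change that these libraries leave possible. With all 8 libraries, the 95% interval of the fold change lay inside 1.5-fold in either direction for 33 of 41 members, against 54.3% of all genes tested. It reached past 1.5-fold for GINS3, GINS4, PRIM1, PCNA, RFC4, RPA3, CCNE1 and E2F1, the widest bound being 1.73-fold for PCNA. Against DMSO R1 and R3 alone the interval lay inside 1.5-fold for 36 members, against 64.3% of all genes, and reached past it for GINS3, GINS4, PRIM2, RPA3 and CCNE1, up to 1.78-fold for CCNE1. No interval of a member reached 2-fold in either comparison. The shares over all genes are from genes not matched to the members by count. With all libraries, standard errors ran up to 0.24 among members and up to 1.80 among all genes. A lower level in bulk RNA can come from fewer cells in S phase or from less RNA of these genes per cell, and the libraries cannot tell these apart.

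**Figure D1:**
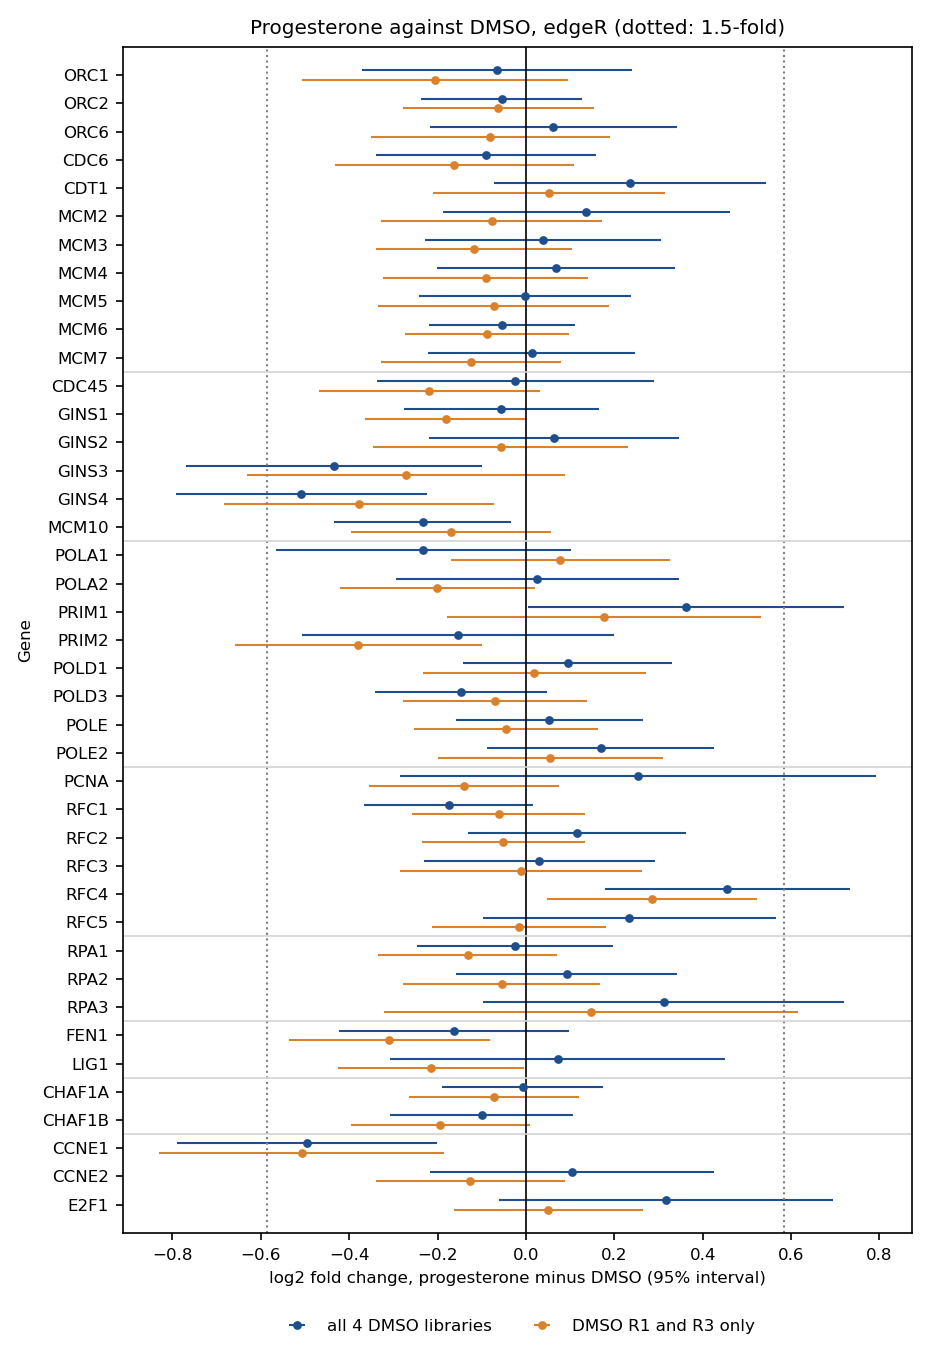
Log2 fold change of each of the 41 genes (progesterone minus DMSO, x axis) with its 95% interval from edgeR, with all 4 DMSO libraries (blue) and with DMSO R1 and R3 alone (orange). The orange points lie left of 0 for 33 genes, the blue points for 19, and no interval reaches a log2 change of 1.

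Among licensing genes, none of 11 had an unadjusted p under 0.05 in either comparison. MCM2 to MCM7 form the hexameric ring of the replicative helicase. Summed, their 6 genes stood at 1836, 1686, 1399 and 1399 CPM in DMSO R1, R3, R7 and R9 and at 1699, 1626, 1778 and 1436 CPM in progesterone R1, R2, R3 and R6. DMSO R7 and R9 were thus the lowest libraries, progesterone R6 was next, and all progesterone libraries lay inside the range of DMSO. The mean was 1580 ± 218 CPM with DMSO and 1635 ± 146 with progesterone (SD, n = 4 each). MCM2 (Entrez Gene 510120, chromosome 22) had the widest range of the ring, at 460, 413, 320 and 298 CPM with DMSO and 436, 402, 451 and 350 with progesterone. Its log2 fold change was 0.14 ± 0.15 (SE, edgeR adjusted p = 0.569) and -0.08 ± 0.11 without DMSO R7 and R9. MCM6 was the steadiest of the ring, with a log2 fold change of -0.05 ± 0.07 and an interval of -0.22 to 0.11. All 6 ring genes were below 0 against DMSO R1 and R3, between -0.12 and -0.07, and MCM7 alone had no overlap there.

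CDT1 (519016, chromosome 18), which brings the MCM ring to the origin, was at 94.97, 85.97, 70.4 and 64.5 CPM with DMSO and 96.7, 86.5, 109 and 79.9 CPM with progesterone. Only DMSO R7 and R9 lay below every progesterone library. Its log2 fold change, the highest of the licensing genes, was 0.24 ± 0.14 (edgeR adjusted p = 0.293), and 0.05 ± 0.12 without DMSO R7 and R9. CDC6, the ATPase that helps to load the ring, was at 37.0, 40.2, 33.9 and 34.4 CPM with DMSO and 35.0, 34.8, 38.8 and 28.1 with progesterone, so the groups overlapped and progesterone R6 was the lowest library. Its log2 fold change was -0.09 ± 0.11, the lowest of the licensing genes with all libraries. ORC1, the largest subunit of the origin recognition complex, was at 36.8, 36.7, 28.9 and 29.7 CPM with DMSO and 35.0, 33.02, 33.9 and 24.3 with progesterone. All 4 progesterone values lay below DMSO R1 and R3, 3 of them above R7 and R9. ORC2, a core subunit of the same complex, varied little, between 36.6 and 43.0 CPM over the 8 libraries. ORC6, the smallest subunit, had a log2 fold change of 0.06 ± 0.13 and of -0.08 ± 0.12 without DMSO R7 and R9.

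Genes of helicase activation were below 0 in 5 of 6 cases with all libraries and in 6 of 6 against DMSO R1 and R3. GINS4 (616799, chromosome 27), a subunit of the GINS complex that bridges helicase and polymerase epsilon, was at 21.2, 28.2, 27.7 and 30.1 CPM with DMSO and 17.9, 20.2, 20.4 and 16.7 CPM with progesterone. Every progesterone library lay below every DMSO library, the nearest pair being progesterone R3 and DMSO R1. The log2 fold change was -0.51 ± 0.13 (95% interval -0.79 to -0.22, edgeR adjusted p = 0.0627), and -0.38 ± 0.14 without DMSO R7 and R9 (adjusted p = 0.219). GINS3, another subunit, was at 13.1, 15.9, 17.4 and 18.0025 CPM with DMSO and 9.44, 13.6, 12.9 and 11.8 with progesterone, with an overlap at DMSO R1. Its log2 fold change was -0.43 ± 0.15 (edgeR adjusted p = 0.111) and -0.27 ± 0.16. The other subunits differed less. GINS1 was at 77.1 ± 9.80 and 74.2 ± 3.25 CPM, and GINS2, the highest of these 6 genes by fold change, at 60.0 ± 7.30 and 62.6 ± 9.93 CPM.

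MCM10, which joins the activated helicase and recruits polymerase alpha, was at 112, 115, 119 and 124 CPM with DMSO and 105, 103, 107 and 84.5 with progesterone. The groups did not overlap, and progesterone R6 was the lowest library. The log2 fold change was -0.23 ± 0.09 (edgeR adjusted p = 0.139) and -0.17 ± 0.10 without DMSO R7 and R9. CDC45, the other helicase cofactor, was at 57.4, 65.6, 42.8 and 47.2 CPM with DMSO and 47.2, 52.9, 60.7 and 48.8 with progesterone, inside the DMSO range.

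In all, the groups did not overlap for 4 members with all libraries, GINS4, MCM10 and CCNE1 below DMSO and RFC4 above, where 16.2% of all genes tested had no overlap, 8.22% below and 7.95% above. Against DMSO R1 and R3, 12 members lay wholly below and 1 wholly above, where 26.8% of all genes had no overlap, 13.9% below and 12.9% above. Beside the 4 above, these were ORC1, MCM7, GINS1, POLA2, PRIM2, PCNA, FEN1, LIG1 and CHAF1B, all of them below.

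**Figure D2:**
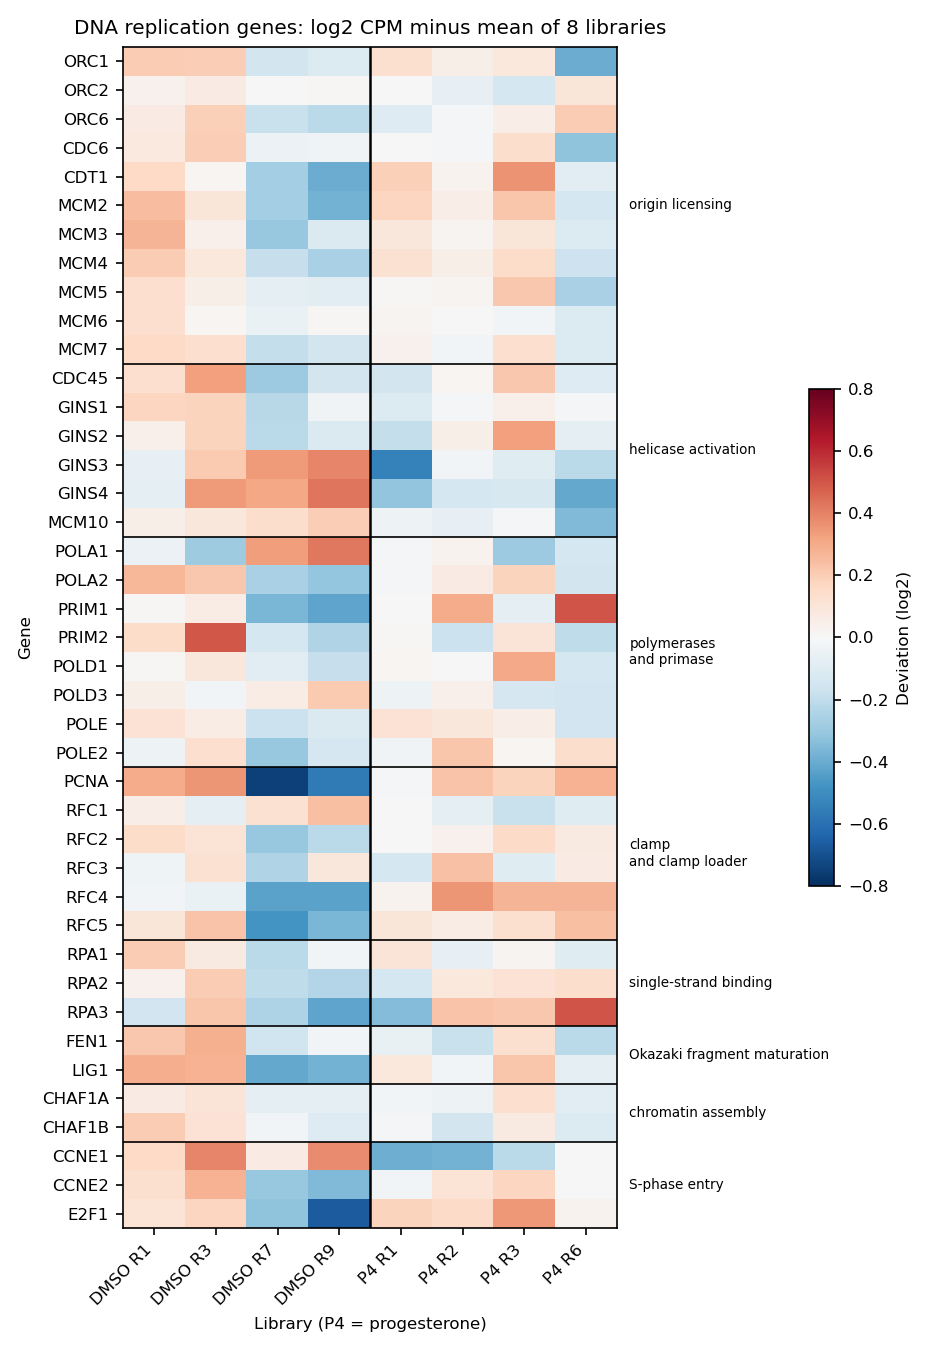
Each cell is the log2 CPM of 1 gene (row, grouped by role) in 1 library (column), minus the mean of the 8 libraries; red is above and blue below that mean. DMSO R7 and R9 are blue in most rows, with GINS3, GINS4, MCM10, POLA1 and CCNE1 among the rows that are not, and progesterone R6 is blue for the MCM ring but red for PRIM1 and RPA3.

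Polymerase and primase genes were split in direction, 5 above and 3 below 0 with all libraries and 4 and 4 against DMSO R1 and R3. PRIM1 (506240, chromosome 5), the catalytic primase subunit, was at 24.2, 25.1, 18.7 and 17.96 CPM with DMSO and 24.1, 29.6, 22.8 and 34.2 CPM with progesterone. Progesterone R2 and R6 lay above all DMSO libraries, while R1 and R3 lay inside their range. The log2 fold change was 0.36 ± 0.16 (edgeR adjusted p = 0.183) and 0.18 ± 0.16 without DMSO R7 and R9. PRIM2, its partner subunit, was at 30.3, 38.6, 24.8 and 23.1 CPM with DMSO and 27.5, 24.2, 29.4 and 23.8 with progesterone. Its log2 fold change was -0.15 ± 0.16, and -0.38 ± 0.13 against DMSO R1 and R3 (edgeR adjusted p = 0.176), where DMSO R3 was the highest of all libraries. The primase subunits thus had fold changes of opposite sign in both comparisons, a difference that was not tested.

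POLA1 and POLA2, the catalytic and accessory subunits of polymerase alpha, took opposite positions in the vehicle libraries. POLA1 (534848, chromosome X) was at 91.8, 77.9, 120 and 127 CPM with DMSO and 93.9, 97.0, 77.7 and 86.4 with progesterone, so DMSO R7 and R9 were the highest libraries. POLA2 was at 69.8, 67.6, 48.5 and 46.9 CPM with DMSO and 57.8, 60.8, 65.9 and 52.4 with progesterone, so the same libraries were the lowest. The log2 fold change was -0.23 ± 0.15 for POLA1 and 0.03 ± 0.14 for POLA2 with all libraries, and 0.08 ± 0.11 and -0.20 ± 0.10 without DMSO R7 and R9. POLD1, the catalytic subunit of polymerase delta, had a log2 fold change of 0.09 ± 0.11 and its subunit POLD3 one of -0.15 ± 0.09. POLE and POLE2, of polymerase epsilon, had 0.05 ± 0.10 and 0.17 ± 0.12. None of these 4 was beyond 0.07 in size against DMSO R1 and R3.

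PCNA (515499, chromosome 13), the sliding clamp and a common marker of cycling cells, had the widest range of all members over the 8 libraries, 2.14-fold. It was at 170, 177, 82.6 and 93.5 CPM with DMSO and 137, 162, 157 and 168 CPM with progesterone. DMSO R1 and R3 lay above all progesterone libraries and R7 and R9 below all of them. On the log2 scale the difference was 0.25 ± 0.24 with all libraries (edgeR adjusted p = 0.515) and -0.14 ± 0.10 against DMSO R1 and R3 (adjusted p = 0.524). The sign of the PCNA difference therefore rests on which vehicle libraries are used.

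RFC4 (504637, chromosome 1), a small subunit of the clamp loader, was the only member wholly above DMSO. It was at 37.2, 36.4, 28.0 and 28.0 CPM with DMSO and 38.4, 48.2, 45.6 and 45.6 CPM with progesterone. Progesterone R1 lay nearest to DMSO, and the other 3 stood further above. Between the groups the log2 fold change was 0.46 ± 0.13 (95% interval 0.18 to 0.73, edgeR adjusted p = 0.0724) and 0.28 ± 0.11 without DMSO R7 and R9 (adjusted p = 0.235). RFC1, the large subunit, was at 97.6, 89.5, 103 and 111 CPM with DMSO and 94.0, 89.7, 83.3 and 88.0 with progesterone, a log2 fold change of -0.17 ± 0.09. For RFC2, RFC3 and RFC5 the values were 0.12 ± 0.11, 0.03 ± 0.12 and 0.23 ± 0.15 with all libraries. They were -0.05, -0.01 and -0.02 without DMSO R7 and R9.

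The RPA trimer coats single-stranded DNA at the fork. RPA3, its smallest subunit, was at 36.1, 46.8, 33.8 and 30.0 CPM with DMSO and 31.6, 47.1, 46.6 and 56.8 with progesterone, with overlapping groups. With progesterone the log2 fold change was 0.31 ± 0.18 (edgeR adjusted p = 0.295). RPA1, the large subunit, was at 218, 199, 163 and 187 CPM with DMSO and 203, 181, 192 and 177 with progesterone, a log2 fold change of -0.02 ± 0.10. RPA2 had one of 0.09 ± 0.11.

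FEN1 removes the RNA flap of Okazaki fragments and LIG1 seals the nick that remains. FEN1 (616242, chromosome 29) was at 99.2, 104, 76.6 and 84.3 CPM with DMSO and 82.2, 75.6, 93.6 and 73.8 CPM with progesterone. LIG1 (100124507, chromosome 18) was at 161, 160, 99.3 and 102 CPM with DMSO and 140, 130, 154 and 125 CPM with progesterone. For both genes all progesterone libraries lay below DMSO R1 and R3, and for LIG1 all lay above R7 and R9. With all libraries the log2 fold change was -0.16 ± 0.12 for FEN1 and 0.07 ± 0.17 for LIG1. Against DMSO R1 and R3 it was -0.31 ± 0.10 (edgeR adjusted p = 0.176) and -0.21 ± 0.10 (adjusted p = 0.303).

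CHAF1A and CHAF1B, subunits of the factor that deposits histones behind the fork, were at 122 ± 8.04 and 64.9 ± 6.18 CPM with DMSO and at 122 ± 8.24 and 60.5 ± 4.18 CPM with progesterone (SD, n = 4 each). CHAF1A varied least of all members, 1.16-fold from its lowest to its highest library. Log2 fold changes were -0.01 ± 0.08 and -0.10 ± 0.09 with all libraries, and -0.07 ± 0.09 and -0.19 ± 0.09 against DMSO R1 and R3.

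Cyclins E1 and E2 activate CDK2 at the entry into S phase. CCNE1 (533526, chromosome 18) was at 15.9, 18.8, 15.0 and 18.6 CPM with DMSO and 10.9, 10.98, 12.3 and 14.2 CPM with progesterone. All progesterone libraries lay below all DMSO libraries, with means of 16.8 CPM in DMSO R7 and R9 and 17.4 CPM in R1 and R3. On the log2 scale the difference was -0.50 ± 0.13 (95% interval -0.79 to -0.20, edgeR adjusted p = 0.0704) with all libraries and -0.51 ± 0.15 (-0.83 to -0.18, adjusted p = 0.127) without R7 and R9. CCNE1 passed neither edgeR nor voom, and it passed DESeq2, with an adjusted p of 0.0113 and of 0.0453 without R7 and R9.

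CCNE2 had another pattern, at 42.0, 46.8, 31.1 and 30.1 CPM with DMSO and 38.0, 41.5, 43.4 and 38.5 with progesterone. Its progesterone libraries lay between the pairs of vehicle libraries, apart from R3, which was above DMSO R1. Between the groups the log2 fold change was 0.10 ± 0.14, and -0.13 ± 0.10 without R7 and R9. E2F1 (535369, chromosome 13), the transcription factor that drives many of these genes and is its own target, was at 114, 119, 84.8 and 66.6 CPM with DMSO and 120, 118, 135 and 108 CPM with progesterone. With progesterone the log2 fold change was 0.32 ± 0.17 (edgeR adjusted p = 0.254), and 0.05 ± 0.10 against DMSO R1 and R3. Its lowest libraries were DMSO R7 and R9.

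**Figure D3:**
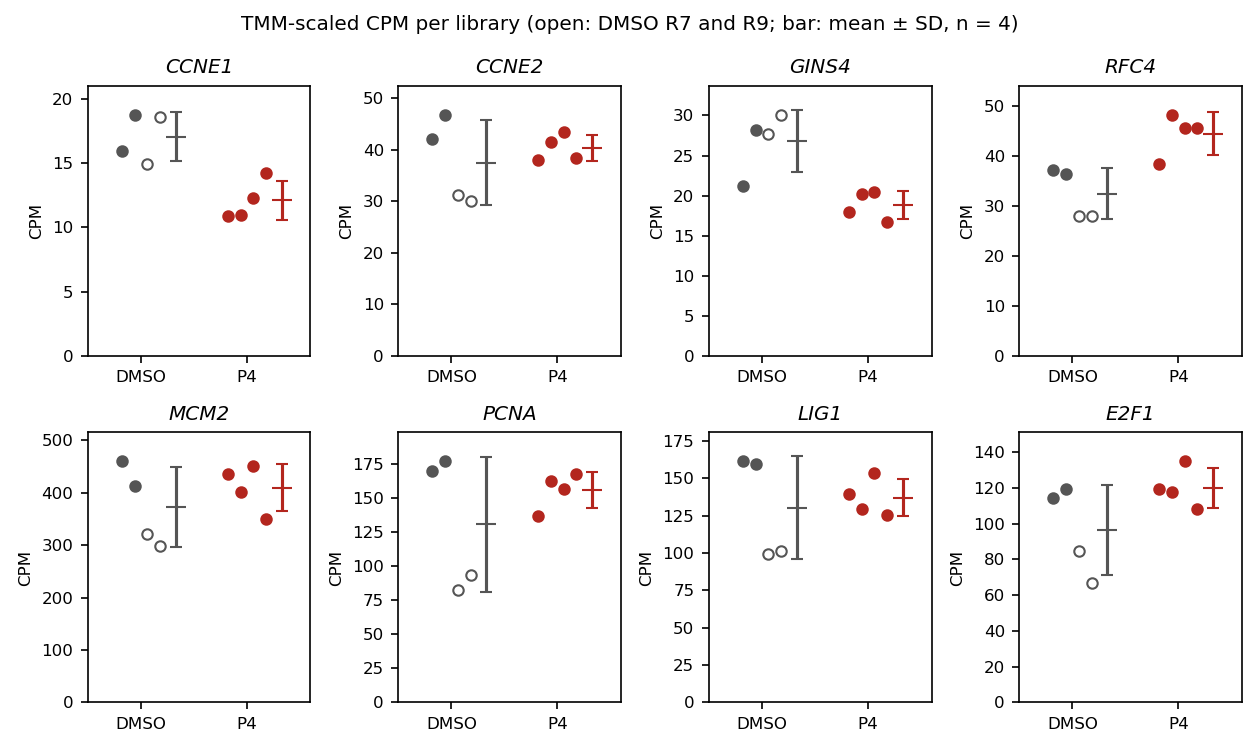
TMM-scaled CPM (y axis, from 0) of 8 genes in each library with DMSO (grey) and progesterone (P4, red); open circles are DMSO R7 and R9, and bars are mean ± SD of 4 libraries. CCNE1 and GINS4 are lower and RFC4 higher in every P4 library than in any DMSO library, while for PCNA and LIG1 the P4 libraries sit between the filled and the open DMSO circles.

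Within the vehicle group the members split by library. The mean of DMSO R7 and R9 divided by that of R1 and R3 was 0.802 at the median member, from 0.507 for PCNA to 1.46 for POLA1. Both libraries lay below all 6 others for 17 members (41.5%), against 24% of all genes tested. They lay above all 6 for 5 members, GINS3, MCM10, POLA1, POLD3 and RFC1 (12.2%), against 25.2% of all genes. As a share of all counts, the 41 genes took 0.464% and 0.450% in DMSO R1 and R3, 0.349% and 0.354% in R7 and R9, and 0.391% to 0.433% with progesterone. The summed stromal and smooth muscle markers given above were highest in R7 and R9 among the DMSO libraries. Single markers of these lists went both ways: COL1A1 was at 2046 and 1928 CPM in R1 and R3 and at 6554 and 5295 in R7 and R9, while DCN was at 962 and 770.0 CPM against 268 and 281, and PDGFRB, CNN1 and ACTA2 were also lower in R7 and R9. The part of these markers in the members' levels was not tested. Within the progesterone group, R6 was the lowest library for 21 members and R3 the highest for 22, where 27.7% and 30.2% of all genes had their extremes there.

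Leaving out DMSO R1 brought 4 members past the threshold, GINS3, GINS4 and CCNE1 below DMSO and RFC4 above (edgeR adjusted p between 0.0179 and 0.0474), and 13% of all genes. The remaining DMSO libraries are then R3, R7 and R9. Leaving out any other single library brought no member past it, in either comparison. Of all genes, 5.78%, 0.374% and 0.6% passed without DMSO R3, R7 and R9, and 0.306%, 0.349%, 0.554% and 0.386% with R1, R2, R3 or R6 of progesterone removed. With DMSO R7 and R9 already out, the shares were 0.184% and 0.134% without DMSO R1 and R3, and 0.693%, 0.62%, 1.13% and 1.3% with R1, R2, R3 or R6 of progesterone removed.

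The rest of the replication and cell cycle machinery was read from 8 further lists of 124 genes in all. In edgeR with all 8 libraries 1 of 123 tested genes fell, 0 rose and 122 did not pass, beside 2.65% of all genes called. An unadjusted p under 0.05 was given to 33 of them, beside 26.8% of all genes. DESeq2 called 8 of the 123, 2 higher (CDKN1B and HAT1) and 6 lower, beside 13.5% of all genes, and voom called 1. Against DMSO R1 and R3 0 of 124 passed in edgeR, beside 1.18% of all genes. In the latter, edgeR gave 18 genes at an unadjusted p under 0.05 (15.9% of all genes), while 5 passed in DESeq2 (4.38%) and 0 in voom. The gene that fell was CTPS1 (log2 fold change -0.69 ± 0.14, edgeR adjusted p = 0.0338), the CTP synthase that feeds nucleotide synthesis. It was at 94.3, 98.4, 125 and 147 CPM with DMSO and 77.3, 72.0, 71.9 and 66.9 CPM with progesterone, without overlap, and its value was -0.41 ± 0.09 (adjusted p = 0.0538) against DMSO R1 and R3. The call was lost when DMSO R7, DMSO R9 or any 1 progesterone library was left out, with adjusted p between 0.0673 and 0.117.

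Of 12 genes of deoxynucleotide supply, the other 11 did not pass in edgeR in either comparison. DESeq2 also called SAMHD1, a dNTP hydrolase, with all libraries (adjusted p = 0.00618), and RRM2 (0.000711) and RRM1 (0.00691) against DMSO R1 and R3. RRM1 and RRM2 encode the subunits of ribonucleotide reductase, and they and SAMHD1 were chosen after their values were seen. RRM2 was at 485, 514, 346 and 363 CPM with DMSO and 335, 374, 394 and 342 CPM with progesterone. DMSO R1 and R3 thus stood above the other 6 libraries, and R7 and R9 were inside the range of progesterone. Against DMSO R1 and R3 the log2 fold change was -0.45 ± 0.10 for RRM2 (edgeR adjusted p = 0.0518) and -0.35 ± 0.08 for RRM1 (adjusted p = 0.0757). With all libraries it was -0.24 ± 0.14 and -0.22 ± 0.10. The list as a whole was split, 6 genes above and 6 below 0 with all libraries, at a median of 0.04. Against DMSO R1 and R3, 4 were above and 8 below, at a median of -0.12. TYMS and DUT, also chosen after their values were seen, were at 0.43 ± 0.18 and 0.38 ± 0.15 with all libraries. Without DMSO R7 and R9, the lowest libraries of both, they were at 0.14 ± 0.10 and 0.18 ± 0.11.

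In edgeR, no gene of the other 7 lists passed in either comparison. Of 15 further licensing and firing genes, TICRR, a firing factor, and DBF4, the activator of the CDC7 kinase, had the smallest p, at log2 fold changes of -0.30 ± 0.09 and 0.26 ± 0.10. Leaving out DMSO R7 and R9 put them at -0.18 ± 0.09 and 0.21 ± 0.11. GMNN, the inhibitor of CDT1, was at 53.1 ± 8.71 and 63.6 ± 10.2 CPM. Among 15 further polymerase, clamp and maturation factors, CHTF8, of an alternative clamp loader, was at -0.24 ± 0.09 and the topoisomerase TOP1 at -0.26 ± 0.11 on the log2 scale. Without DMSO R7 and R9, the highest libraries of both, they were at -0.10 ± 0.08 and -0.05 ± 0.08. Among 12 checkpoint genes, the fork mediator CLSPN was at 56.4, 53.2, 54.8 and 64.1 CPM with DMSO and 45.8, 46.1, 42.3 and 41.6 with progesterone, without overlap. On the log2 scale the difference was -0.38 ± 0.09 (edgeR adjusted p = 0.0520) and -0.31 ± 0.09 without DMSO R7 and R9 (adjusted p = 0.139), and that of RAD1, of the checkpoint clamp, -0.28 ± 0.10 and -0.17 ± 0.11. Among 13 chromatin genes, the histone acetyltransferase HAT1 was at 0.41 ± 0.13 and NPAT, the activator of histone genes, at -0.25 ± 0.10, and without DMSO R7 and R9 they were at 0.25 ± 0.12 and -0.21 ± 0.11.

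Control genes of G1/S were mostly below 0, 17 of 27 with all libraries and 19 of 27 against DMSO R1 and R3, beside 51% and 48% of all genes. SKP2, the ubiquitin ligase subunit that degrades p27, was at 46.7, 40.8, 36.5 and 39.0 CPM with DMSO and 31.9, 36.3, 32.7 and 31.7 with progesterone. Between the groups the log2 fold change was -0.30 ± 0.10 (edgeR adjusted p = 0.101) and -0.39 ± 0.10 without DMSO R7 and R9 (adjusted p = 0.0961). CDKN1B, which encodes p27, an inhibitor of cyclin E with CDK2, was at 35.7, 36.1, 27.5 and 21.4 CPM with DMSO and 42.5, 42.6, 45.2 and 39.9 with progesterone. With progesterone the log2 fold change was 0.50 ± 0.15 (edgeR adjusted p = 0.0910) and 0.26 ± 0.09 (adjusted p = 0.205). For both genes the groups did not overlap in either comparison. The cyclin D2 gene CCND2 was at -0.69 ± 0.19 with all libraries and at -0.29 ± 0.14 without DMSO R7 and R9, which held its highest levels.

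Of 7 CDK inhibitor genes, 6 were tested with all libraries and 5 of these were above 0, with a median log2 fold change of 0.36. Against DMSO R1 and R3 all 7 were tested, with a median of 0.11, so the 2 medians cover different genes. The gene tested only there was at most at 0.611 CPM in any library. CDKN2C was at 0.37 ± 0.15 and 0.17 ± 0.13. Of 23 genes of G2 and mitosis, none passed, and the interval lay inside 1.5-fold for 22 in both comparisons. Their median was -0.05 with all libraries, 9 genes above and 14 below 0. Against DMSO R1 and R3 it was -0.003, 11 above and 12 below. CENPA, the centromeric histone, was at 0.37 ± 0.12 and CENPE, a kinetochore motor, at -0.31 ± 0.11 on the log2 scale with all libraries, and at 0.30 ± 0.13 and -0.19 ± 0.12 without DMSO R7 and R9. MKI67, the Ki-67 antigen found in cycling cells, was at 758, 785, 808 and 779 CPM with DMSO and 701, 719, 628 and 742 with progesterone. These values did not overlap, with a log2 fold change of -0.17 ± 0.09 (edgeR adjusted p = 0.236), and DMSO R7 and R9 were not its lowest libraries.

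**Figure D4:**
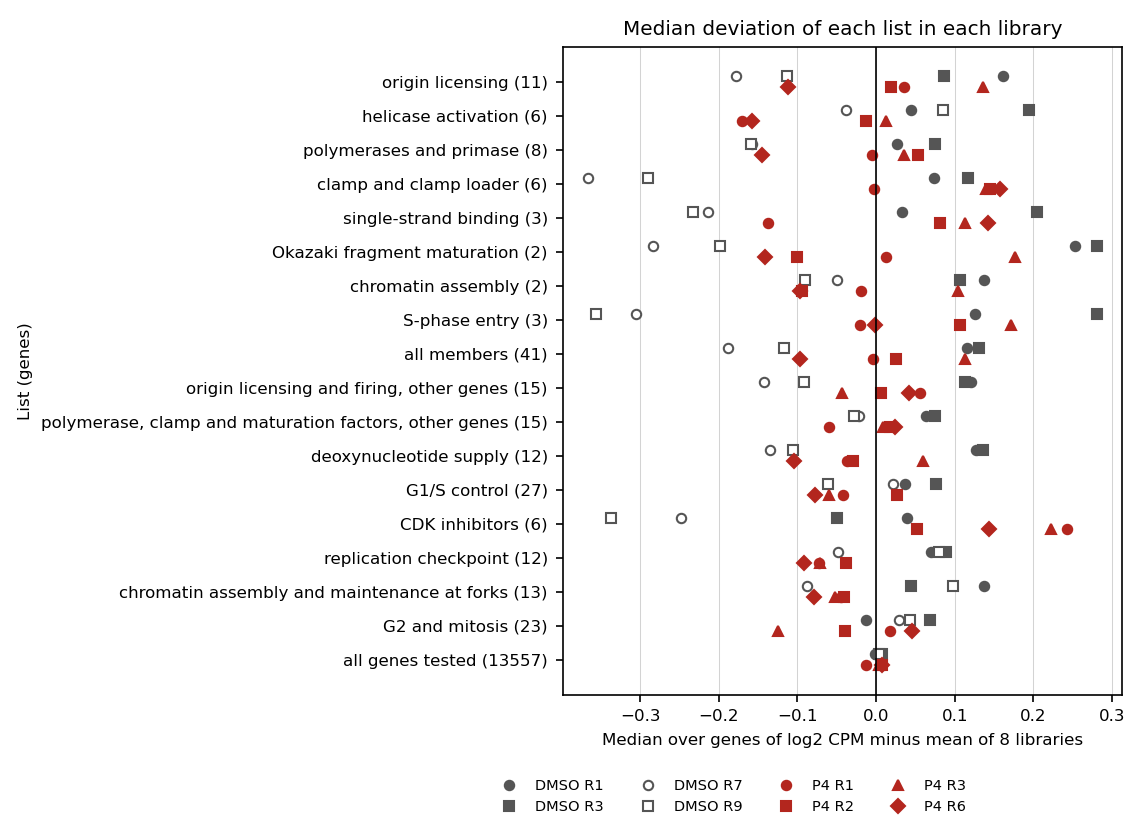
Median over the genes of each list (rows, number of genes in brackets) of log2 CPM minus the mean of the 8 libraries; grey marks are DMSO (open: R7 and R9) and red marks progesterone (P4). For all 41 replication genes the DMSO medians run from -0.19 (R7) to 0.13 (R3) and the P4 medians from -0.10 (R6) to 0.11 (R3). R7 and R9 are also below 0 for CDK inhibitors (-0.25 and -0.34) and deoxynucleotide supply (-0.14 and -0.11). For G2 and mitosis they are at 0.03 and 0.04.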

How the data were processed

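Gene expression was measured by RNA sequencing in 8 libraries. Per the labels' protocols, the libraries were made with a stranded mRNA kit. The deposited table holds estimated counts per gene, with length normalization per its name; its column totals differ. Tools listed in the submitters' processing notes are bcl2fastq and Salmon 1.4.0, and the listed build is ARS-UCD1.2; roles and order are not listed. The transcript-to-gene step was not given in the sources used here. No sequences or transcript lengths were used, so levels of single members are not compared with one another. Sums over markers or members of a complex add CPM, so genes with high CPM weigh most in them. Chromosomes are those of the deposited table.

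Counts were rounded. Genes were kept by filterByExpr, scaled by TMM and tested two-sided with edgeR 4.0.16 (quasi-likelihood, robust, group only, R 4.3.3), with Benjamini-Hochberg adjustment over all genes tested and a threshold of 0.05. Standard errors are the log2 fold change divided by the square root of F; 95% intervals use the t distribution. Deviations use a prior count of 2. The fit was tested on simulated data that had the same dispersion for every gene and no split of DMSO R7 and R9 from the others. Alternatives were other scaling and filters, DESeq2 1.42.0, voom of limma 3.58.1, unrounded counts, leaving out each library and the column number as a block. A term for DMSO R7 and R9 was added after seeing the data.

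Members, lists and alternatives were chosen with earlier results of these data known. Values per library are given for the members with the highest and lowest fold change in each role and for members of a complex. Of every other list, genes that passed or the 2 with the smallest p are named. GMNN, MKI67, SAMHD1, RRM1, RRM2, TYMS and DUT were added after their values were seen. No libraries of a group agreed within sampling noise (chi-square over genes divided by its degrees of freedom: 15.0 to 137).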

Additional observations from a re-analysis of the deposited data

Results flagged for a closer look

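Each group of 4 libraries was checked for a library far from the others, over the 41 members and 15 named genes of the other lists, 112 groups in all. Chance marks about 1 group in 20, and 1 was found. MCM10 in progesterone R6 was at 84.5 CPM, while the other progesterone libraries lay between 103 and 107 CPM. That gap, as a share of the group's range, was barely past Dixon's 95% critical value for 4 samples. R6 was also the lowest progesterone library for 21 of the 41 members.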

How the results depend on the processing

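The count of 0 members past the threshold held under DESeq2's size factors, library size only, both other filters, voom and unrounded counts in both comparisons, and under a term for DMSO R7 and R9. DESeq2 called 3 members with all libraries and 1 without DMSO R7 and R9. Leaving out 1 library gave 0 to 4 members, and 0 in the comparison without DMSO R7 and R9. The other lists had 1 gene past the threshold with all libraries, 8 in DESeq2 and 3 with the term for R7 and R9. Of all genes, 2.65%, 13.5% and 2.05% passed there. With 1 library left out the lists had 0 to 9, beside 0.306% to 13% of all genes. Without R7 and R9 they had 0, then 2 with library size only, 2 without a filter and 1 with a mean of at least 1 CPM. In the same order, 1.18%, 0.93%, 1.71% and 1.18% of all genes passed. DESeq2 gave 5 (4.38% of all genes), and leaving 1 library out gave 0 to 2 (0.134% to 1.3%). The median log2 fold change of the members lay between -0.04 and 0.08 with 1 library left out and between -0.14 and -0.09 in the comparison without R7 and R9; it was -0.09 with the term for R7 and R9. Both groups have columns numbered 1 and 3. With this number as a block, the fit rests on those 2 pairs with 1 residual degree of freedom, and nothing in the labels says that the numbers pair the samples. Deviations of the pairs correlated at 0.234 and 0.211. Libraries of unlike number were not compared, so these values cannot tell whether the samples were paired. With all libraries the block gave 7 members (17.1%), all lower with progesterone, and 33 genes of the other lists, beside 18.7% of all genes. Without R7 and R9 it gave 4 members (9.76%) and 26 genes of those lists, beside 14.5% of all genes. Member medians under the block were -0.08 and -0.07. PCNA turned sign under it, at -0.24 (edgeR adjusted p = 0.00513). What limits the calls was not tested; a member had at least 277 counts in every library.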
